A study of Mus musculus with 36 samples.

Results

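The 32 genes described here encode lysosomal enzymes and membrane proteins: 11 proteases, 7 glycosidases, 4 hydrolases or activators that act on lipids and lipid-linked proteins, 6 membrane proteins and 4 subunits of the V-ATPase, the proton pump that acidifies the lysosome. They were chosen by name, and each was read from the probe of that name with the highest mean intensity among the probes that passed a filter on dim signals. All 32 passed, of 16501 genes tested and 27597 gene names on the array. Lysosomes digest proteins, glycans, glycogen and lipids that reach them by endocytosis, phagocytosis or autophagy. Their soluble enzymes are made in the endoplasmic reticulum, tagged with mannose 6-phosphate in the Golgi and released from their receptors on the way to the acidic lysosome, whose membrane is lined by heavily glycosylated proteins. In fat, adipocytes, fibroblasts and above all macrophages carry lysosomes, and adipose macrophages are known for taking up lipid into them.

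The mice were 36 adult C57BL/6J males, for which the labels give no genetic change, and RNA was taken from their epididymal white adipose tissue (epididymal fat). All ate a purified high-fat diet (30 energy percent fat) freely for 3 weeks. The t0 group was killed at that point, the HF-AL group ate freely for 12 more weeks, and the HF-DR group was held to a ration of it for those 12 weeks (70 energy percent by the labels), with vitamins and minerals added so that their intake matched. Each group held 12 mice with 1 two-colour Agilent array each, with the animal's RNA in Cy5 and a pool of all samples in Cy3. Values are normalized log2(Cy5/Cy3), with 0 as the level of the pool only where a probe has no dye effect, which was not measured. The probe used for Atp6v1a read above 0 on all 36 arrays (0.05 to 0.99), so 0 was not the pool level for every probe. A difference of 1 is a doubling of this ratio. The ratio was taken after a constant was added to both signals, which shrinks differences of dim probes. Folds given below are folds of this ratio. In whole tissue, fewer cells of a type and less RNA per cell cannot be told apart, and in comparisons with t0 the feeding and 12 weeks of age cannot be told apart.

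The share of probes well above background ran from 45.2% to 86.6% over the arrays, and precision is limited by how many arrays a group has. Of 15 adipocyte markers, 15 passed the filter. Transcripts of the male tract stood out on some arrays. Averaged over 6 genes of seminal vesicle and epididymis, HF-DR 8 read 5.84 and HF-DR 9 read 5.37, while HF-DR 7 was at -0.38, t0 6 at -2.81 and every other array at -3.96 or less. Tekt1, found in cilia and the sperm tail and picked after its values were seen, read 1.60, 2.48 and 2.65 on HF-AL 5, 7 and 9, against -2.22 to -1.34 on the other HF-AL arrays and 0.67 to 2.10 on the HF-DR arrays outside HF-DR 7, 8 and 9. HF-AL 5, 7 and 9 were low for the 6 genes (-5.71 to -5.18), so they stood apart for Tekt1 and not for those genes. These 7 arrays were set aside as an alternative, whose values are given for the counts of the 32 genes and where a value moved.

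Many lysosomal genes carry a DNA element bound by TFEB and its relatives, transcription factors that switch on lysosome formation. The RefSeq promoter table (GRCm38.p6, 250 bases before to 50 after each start) held 31 promoters of 28 of the genes; Ctsb, Ctsh, Asah1 and Atp6v1b2 were not matched. The core CACGTG, which reads the same on both strands, was in 12 of these 31 promoters (38.7%) and in 7.15% of the 32851 promoters of the same length in the table. TCACGTGA, which contains that core, was in 6 of the 31 (19.4%) and in 0.974% of the table. The genes were chosen as lysosomal, and such genes were already known to carry the element, so these shares describe them and test nothing. Stretches around the matches are shown for the 6 genes with TCACGTGA and for Lamp1 and Lgmn, so that these can be set beside their expression. Those of Ctsf, Gaa, Ctsl and Glb1, which also hold the core, are not shown. They are written 5′ to 3′ on the gene's strand, with each match within them in capitals. The Ctsd promoter held 2 copies of the core, of which its stretch shows 1.
Ctsd (chr7:142387900-142387945, minus strand): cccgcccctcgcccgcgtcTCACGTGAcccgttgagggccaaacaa
Ctsa (chr2:164833741-164833784, plus strand): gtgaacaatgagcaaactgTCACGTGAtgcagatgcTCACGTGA
Gla (chrX:134601174-134601252, minus strand): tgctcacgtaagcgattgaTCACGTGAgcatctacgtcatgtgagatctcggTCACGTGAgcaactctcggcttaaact
Mcoln1 (chr8:3500428-3500499, plus strand): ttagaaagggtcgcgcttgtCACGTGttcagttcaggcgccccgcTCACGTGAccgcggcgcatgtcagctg
Atp6v0d1 (chr8:105566053-105566087, minus strand): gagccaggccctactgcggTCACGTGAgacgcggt
Atp6v1a (chr16:44139365-44139410, minus strand): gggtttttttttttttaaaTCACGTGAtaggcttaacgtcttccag
Lamp1 (chr8:13159080-13159171, plus strand): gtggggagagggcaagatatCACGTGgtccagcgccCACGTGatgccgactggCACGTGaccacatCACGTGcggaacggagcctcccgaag
Lgmn (chr12:102439116-102439161, minus strand): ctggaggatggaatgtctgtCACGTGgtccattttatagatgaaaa
The promoters of Ctsa and Gla held 2 copies of TCACGTGA each, and that of Lamp1 held 4 copies of the core in 92 bases.

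Restricted and free feeding on the same diet were compared to see what restriction changed. Of the 32 genes, 24 changed between HF-DR and HF-AL (adjusted p under 0.05), where 64.8% of all genes tested did. 17 were lower in HF-DR (35.9% of all genes) and 7 were higher (28.8% of all genes). The median difference was -0.23, against -0.04 over all genes. Without the 7 arrays 19 were lower (36.1% of all genes) and 7 higher (30.7%), with a background of 66.8% and a median of -0.18. By role, 14 of the 22 soluble enzymes and activators were lower and 1 (Ctsd) was higher, the membrane proteins were divided, and 3 of 4 V-ATPase subunits were higher; a difference between roles was not tested. By size, 7 changed at least 1.5-fold (Lgmn, Ctsd, Ctsk, Laptm5, Hexa, Gusb and Ctsh), against 17.5% of all genes. Without the 7 arrays 6 did (17.6%), as Hexa (-0.55) and Ctsh (-0.38) fell short and Man2b1 (-0.68) was added.

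**Figure D1:**
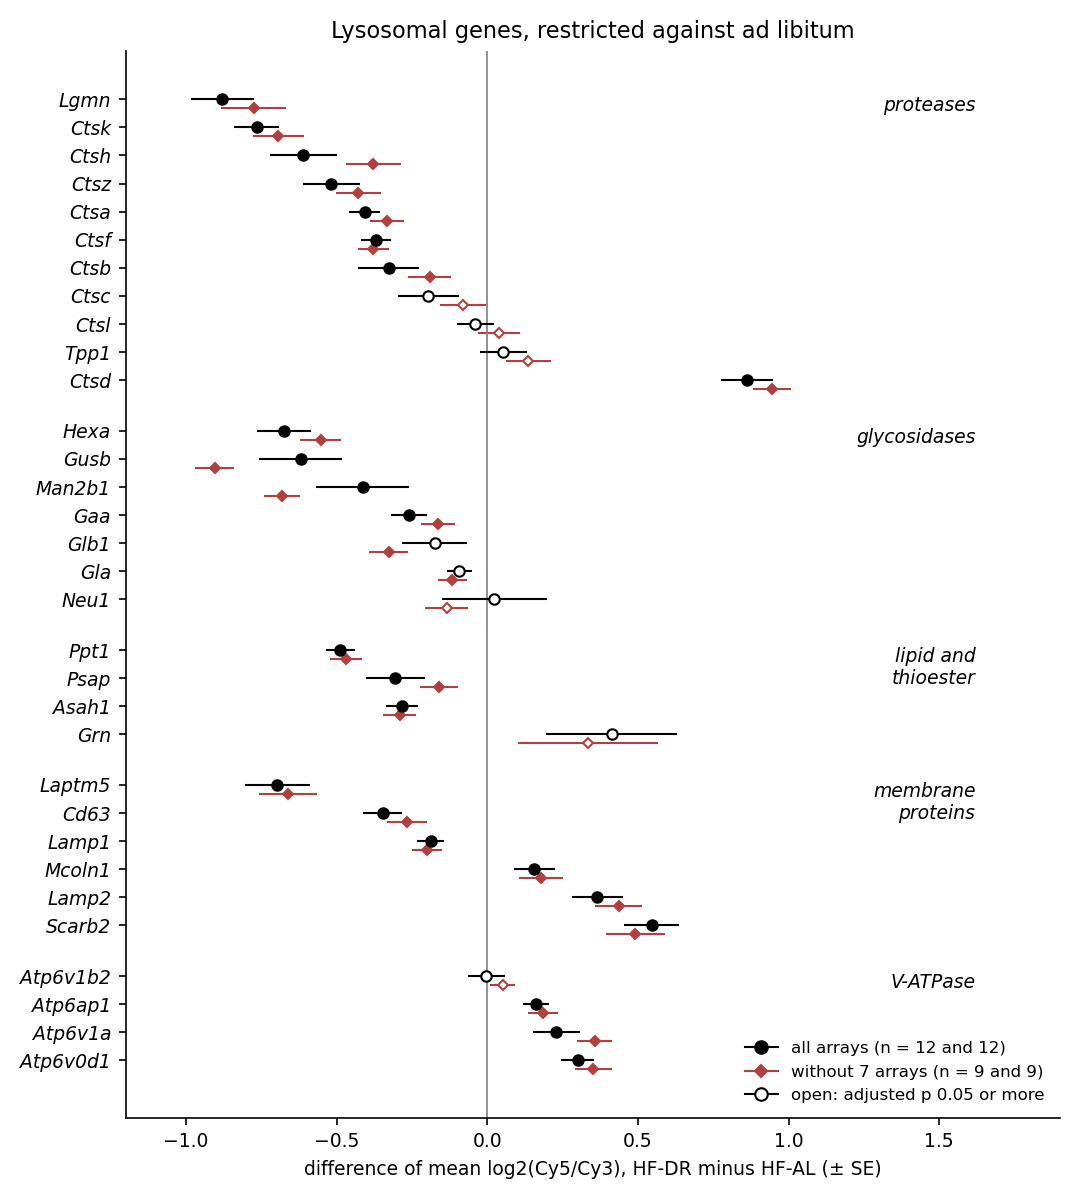
Difference in mean log2(Cy5/Cy3) between HF-DR and HF-AL for the 32 genes, by role, with its standard error; circles use all arrays (12 in each group, 10 or 11 in 1 group for Lamp1, Lamp2, Neu1, Psap, Tpp1, Cd63 and Scarb2, where spots were left out) and diamonds leave out 7 arrays (9 in each group, with 8 HF-AL arrays for Lamp2, Neu1, Psap and Tpp1), and open symbols did not pass an adjusted p of 0.05. Lgmn at -0.88 and Ctsd at 0.86 lie at the ends among the proteases, and Gusb and Man2b1 move to -0.90 and -0.68 without the 7 arrays.

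Of the 11 proteases, 7 were lower and 1 was higher in HF-DR. Legumain (Lgmn), an asparaginyl endopeptidase that also matures other lysosomal proteases, ran from -0.43 through a median of -0.14 to 0.24 in HF-AL and from -1.65 through -1.01 to -0.57 in HF-DR. In t0 it ran from -0.41 through 0.04 to 0.48. Each HF-DR array was below each array of the other groups. The difference from HF-AL was -0.88 ± 0.10 (SE, n = 12 and 12, adjusted p = 3.33e-09), a 1.84-fold lower level. Cathepsin K (Ctsk), a collagen-degrading enzyme best known from osteoclasts, ran from -0.02 through 0.16 to 0.61 in HF-AL, from -0.02 through 0.24 to 0.39 in t0 (n = 11) and from -0.84 through -0.58 to -0.19 in HF-DR. HF-DR overlapped neither group. Against HF-AL it fell by 0.76 ± 0.08 (adjusted p = 6.09e-11), a 1.70-fold lower level.

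Cathepsin D (Ctsd) went the other way. This aspartic protease, which works at acid pH and does not belong to the papain-like family of most other cathepsins, was read at chr7:142185447-142185506 (mm8). It ran from -0.54 through -0.36 to -0.12 in HF-AL, from -0.35 through -0.23 to -0.02 in t0 and from -0.20 through 0.61 to 0.87 in HF-DR. HF-DR 8 and 9, at -0.20 and -0.07, were the lowest of their group, and the others read 0.35 or more, above every array of HF-AL and t0. The difference from HF-AL was 0.86 ± 0.09 (adjusted p = 6.26e-11), a 1.82-fold higher level, and its other probe gave 1.05 ± 0.09. Its promoter is among those with TCACGTGA shown above.

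The remaining proteases changed less. Cathepsin H (Ctsh), an aminopeptidase, differed by -0.61, or by -0.38 without the 7 arrays; it read 0.35, 0.52 and 0.63 on HF-AL 5, 7 and 9, and -1.23 and -0.81 on HF-DR 8 and 9, where the other HF-DR arrays lay between -0.63 and -0.37. Cathepsin Z (Ctsz), a carboxypeptidase of myeloid cells, differed by -0.52. Cathepsin A (Ctsa), the serine carboxypeptidase that holds β-galactosidase and sialidase in a stable complex, differed by -0.41. Of the papain-like cysteine proteases, Ctsf differed by -0.37 and Ctsb by -0.33. Ctsb fell by 0.19 without the 7 arrays. Ctsc, which activates the serine proteases of granules, Ctsl and the tripeptidyl peptidase Tpp1 did not pass, at -0.20 ± 0.10, -0.04 ± 0.06 and 0.05 ± 0.08, although the other probe of Tpp1 passed at 0.20.

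**Figure D2:**
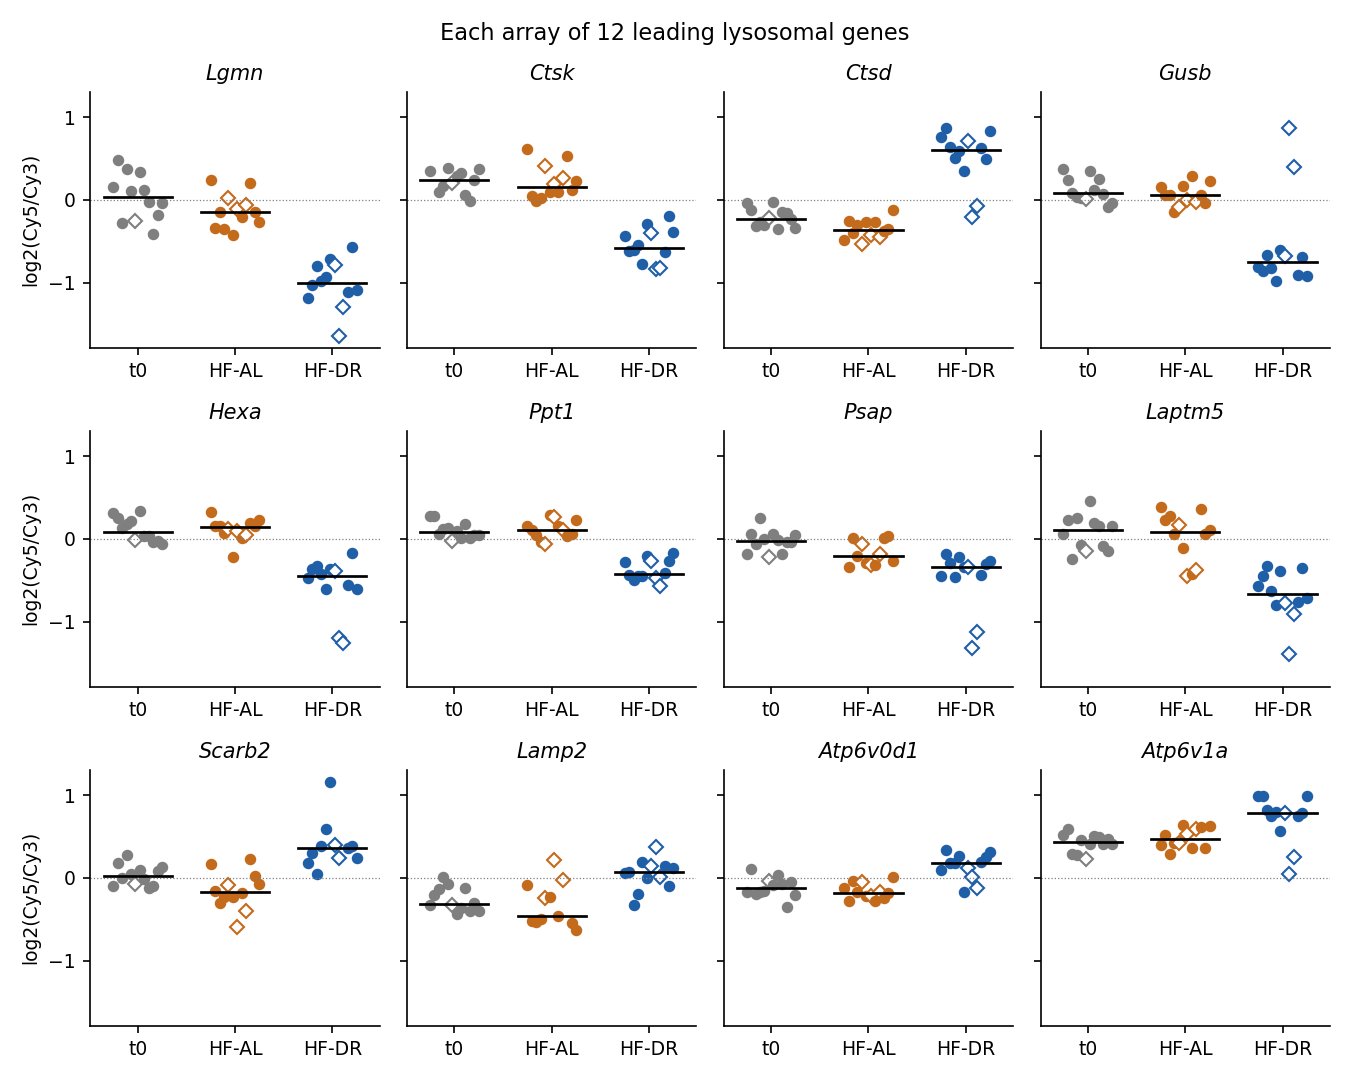
log2(Cy5/Cy3) on each array for 12 of the genes, by group, with the median as a line; open diamonds are the 7 arrays set aside in the alternative. Lgmn, Ctsk and Ppt1 in HF-DR lie below all HF-AL values, Ctsd lies above them on all HF-DR arrays but HF-DR 8, and Gusb at 0.87 and 0.40 on HF-DR 8 and 9 lies apart from its group.

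Of the 7 glycosidases, 4 were lower and none was higher in HF-DR, and 6 were lower without the 7 arrays. The α-subunit of β-hexosaminidase (Hexa), which removes terminal hexosamines from gangliosides, ran from -0.21 through 0.14 to 0.33 in HF-AL, from -0.06 through 0.09 to 0.33 in t0 and from -1.25 through -0.45 to -0.17 in HF-DR. The HF-DR and HF-AL ranges met only at their ends. The difference was -0.67 ± 0.09 (adjusted p = 3.7e-08), and -0.55 without the 7 arrays. β-glucuronidase (Gusb), which breaks down glycosaminoglycans, ran from -0.14 through 0.06 to 0.30 in HF-AL, from -0.08 through 0.08 to 0.38 in t0 and from -0.99 through -0.75 to 0.87 in HF-DR. On HF-DR 8 and 9 it read 0.87 and 0.40, and on the other HF-DR arrays -0.99 to -0.61, below every HF-AL array. The difference was -0.62 ± 0.14 (adjusted p = 0.00019) over all arrays and -0.90 without the 7 arrays (adjusted p = 1.8e-13), and its other probe gave -0.38 ± 0.11.

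The same 2 arrays stood apart for 3 other glycosidases, which were grouped after their values were seen. Man2b1, the α-mannosidase of glycoprotein breakdown, read 1.14 and 0.74 on HF-DR 8 and 9 and -1.05 to -0.59 on the other HF-DR arrays. The β-galactosidase Glb1 read 0.85 and 0.54 there and -0.53 to -0.11 elsewhere in HF-DR. The sialidase Neu1 read 1.54 and 1.21 there and -0.45 to 0.13 elsewhere. The mean of these 4 genes was 1.10 and 0.72 on the 2 arrays, -0.70 to -0.36 on the HF-DR arrays outside the 7, -0.15 to 0.11 on such HF-AL arrays, and -0.50 on HF-DR 7. These are the arrays with seminal vesicle transcripts at 5.84 and 5.37; the part of that tissue in these values was not tested. Without the 7 arrays Man2b1 moved from -0.41 to -0.68, Glb1 passed at -0.33 (adjusted p = 4.3e-05) after -0.17 ± 0.11 on all arrays but its other 2 probes did not (-0.05 and -0.06), and Neu1 moved from 0.02 ± 0.17 to -0.13 (adjusted p = 0.0912). On all arrays those other probes of Glb1 read 0.04, which did not pass, and -0.10, which did (adjusted p = 0.036). With only HF-DR 8 and 9 left out, Neu1 passed at -0.26. The other probe of Neu1 went the other way without the 7 arrays, at 0.12 (adjusted p = 0.0496), so the direction of Neu1 is unsettled. Man2b1 did not pass in a fit of HF-DR and HF-AL alone (adjusted p = 0.0538).

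**Figure D3:**
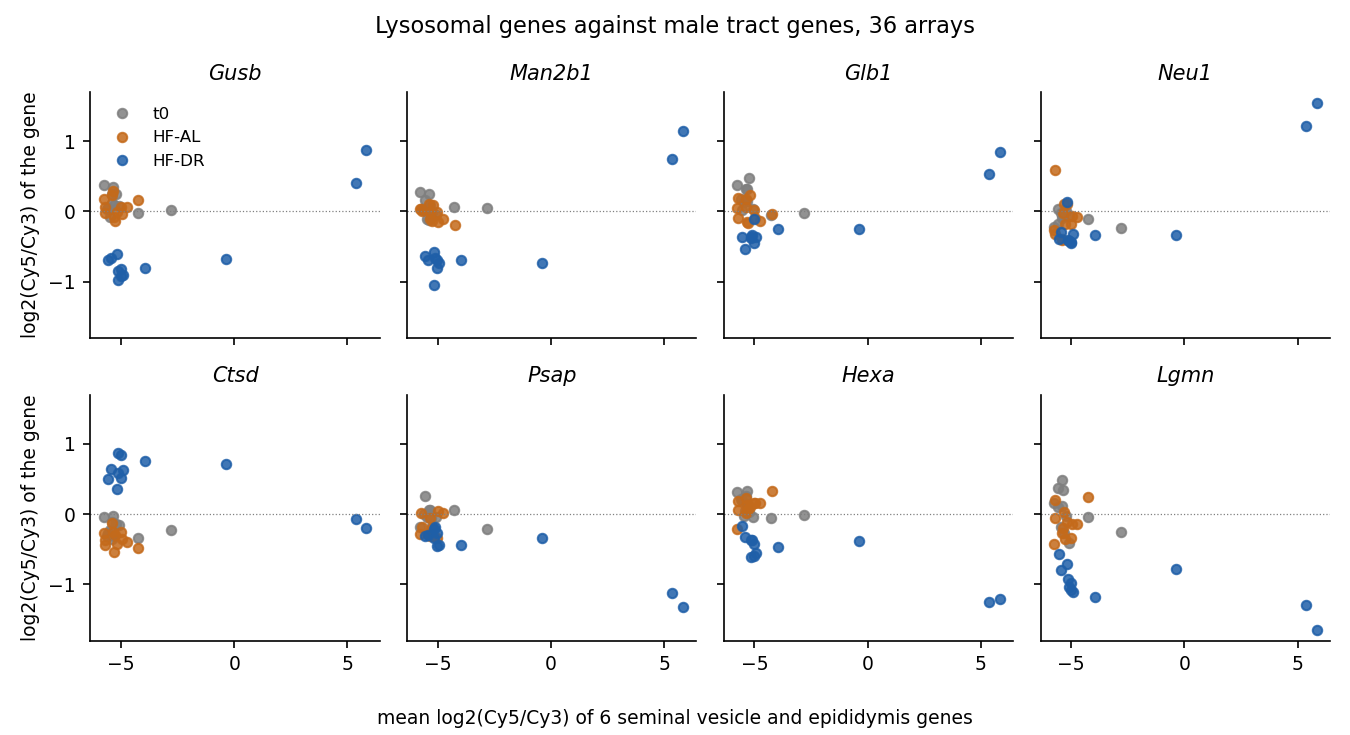
log2(Cy5/Cy3) of 8 lysosomal genes against the mean of 6 seminal vesicle and epididymis genes, 1 point per array, coloured by group. HF-DR 8 and 9, at the right, read high for Gusb, Man2b1, Glb1 and Neu1 (1.54 and 1.21 for Neu1) and low for Psap, Hexa and Lgmn, and their Ctsd (-0.20 and -0.07) is below that of the other HF-DR arrays.

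The acid α-glucosidase Gaa, which digests glycogen in lysosomes, differed by -0.26 between HF-DR and HF-AL, and by -0.16 without the 7 arrays. α-galactosidase A (Gla) did not pass at -0.09 ± 0.04 (adjusted p = 0.0545) and passed without the 7 arrays at -0.12 (adjusted p = 0.0367).

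Of the 4 hydrolases and activators for lipids and lipid-linked proteins, 3 were lower and none was higher. Palmitoyl-protein thioesterase (Ppt1), which removes fatty acids from cysteines of proteins, ran from -0.06 through 0.11 to 0.28 in HF-AL, from -0.03 through 0.08 to 0.28 in t0 and from -0.58 through -0.42 to -0.17 in HF-DR. HF-DR did not overlap the other groups. The difference from HF-AL was -0.49 ± 0.05 (adjusted p = 6.59e-11). Prosaposin (Psap), the precursor of the saposins that present sphingolipids to their hydrolases, ran from -0.34 through -0.20 to 0.04 in HF-AL (n = 11), from -0.22 through -0.03 to 0.26 in t0 and from -1.32 through -0.34 to -0.18 in HF-DR. Its values overlapped, with HF-DR 8 and 9 far below the rest. It fell by 0.30 ± 0.10 (adjusted p = 0.00673), and by 0.16 without the 7 arrays (adjusted p = 0.0282). Its other probe did not pass on all arrays, at -0.15 (adjusted p = 0.114), or without the 7 arrays, at -0.0035 (adjusted p = 0.970). The acid ceramidase Asah1 differed by -0.28.

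Progranulin (Grn), which is cut into granulins in the lysosome, read differently on its 2 probes. The probe used, at chr11:102249367-102249426 (mm8), ran from -1.42 to 0.29 in HF-AL and from -1.68 to 1.24 in HF-DR, and its difference of 0.41 ± 0.22 did not pass (adjusted p = 0.0954). The other probe, at chr11:102252468-102252527, ran from -0.24 to 0.15 in HF-AL and from -0.92 to -0.42 in HF-DR, without overlap, with a difference of -0.52 ± 0.06. With slide as a block the probe used read -0.15 and did not pass, and on the 3 slides with both groups it ran from -0.49 to -0.06. That fit takes no group difference from arrays alone on a slide. These were HF-AL 1, 2 and 3, at -0.75, -0.85 and -0.67, and HF-DR 7 to 12, at 0.20 to 1.24. The probe used passed as higher with the processed signals, median centring and the deposited log2 values. Its direction thus depended on the setting and on which arrays counted. Over the genes, 51 of 55 probes passed the filter, 16 genes had several that passed, and in 3 (Grn, Mcoln1 and Glb1) these differed in sign.

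**Figure D4:**
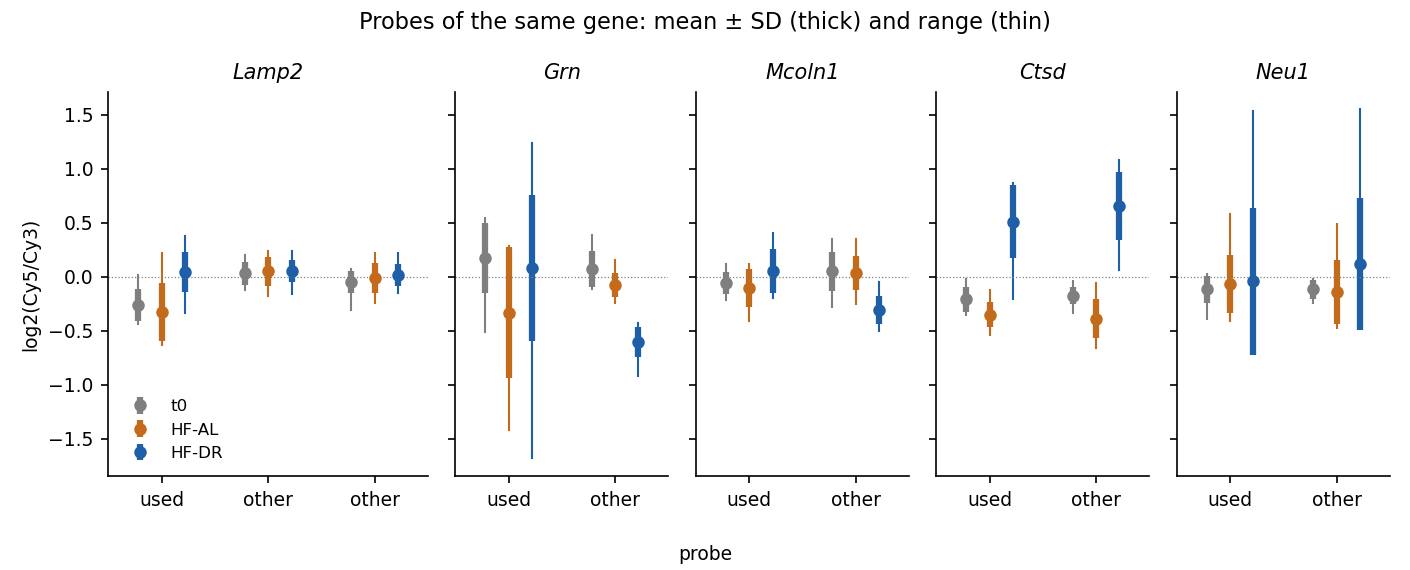
Mean log2(Cy5/Cy3) with SD (thick) and range (thin) in the 3 groups for each probe of Lamp2, Grn, Mcoln1, Ctsd and Neu1 that passed the filter; "used" is the probe behind the values in the text, with 12 arrays a group or fewer where a spot was left out. Both probes of Ctsd are higher in HF-DR (0.86 and 1.05), those of Neu1 differ by 0.02 and 0.26 and did not pass, those of Grn (0.41 and -0.52) and Mcoln1 (0.16 and -0.34) differ in sign, and for Lamp2 the difference of 0.37 is on 1 of 3 probes.

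All 6 membrane proteins passed, 3 lower and 3 higher. Laptm5, a transmembrane protein of lysosomes in blood-derived cells, ran from -0.45 through 0.09 to 0.39 in HF-AL, from -0.25 through 0.10 to 0.46 in t0 and from -1.40 through -0.67 to -0.33 in HF-DR. The groups overlapped at their edges, and the difference was -0.70 ± 0.11 (adjusted p = 6.93e-07). The tetraspanin Cd63, a protein of late endosomes and exosomes, differed by -0.35, and Lamp1, an abundant glycoprotein of the membrane, by -0.19. LIMP-2 (Scarb2), the receptor that carries β-glucocerebrosidase to lysosomes, ran from -0.60 through -0.17 to 0.22 in HF-AL, from -0.12 through 0.02 to 0.28 in t0 and from 0.05 through 0.36 to 1.17 in HF-DR (n = 11). The groups overlapped in part, and the difference was 0.55 ± 0.09 (adjusted p = 2.98e-06).

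Lamp2, needed for autophagosomes to mature and for import of proteins in chaperone-mediated autophagy, depended on the probe. The probe used, at chrX:34649759-34649818 (mm8) and annotated to NM_001017959, ran from -0.63 through -0.46 to 0.22 in HF-AL (n = 11), from -0.44 through -0.31 to 0.02 in t0 and from -0.33 through 0.07 to 0.38 in HF-DR, overlapping. The difference was 0.37 ± 0.08 (adjusted p = 0.000285). The probes annotated to NM_010685 (chrX:34664224-34664283) and AK078193 (chrX:34646608-34646667) gave 0.00 ± 0.05 and 0.03 ± 0.05, neither of which passed. The higher level was therefore measured on 1 of 3 probes of the gene. The calcium channel mucolipin-1 (Mcoln1), which signals nutrient state from the lysosome, ran from -0.40 through -0.08 to 0.11 in HF-AL and from -0.19 through -0.02 to 0.40 in HF-DR on the probe used. These values overlapped widely. The difference was 0.16 ± 0.07 (adjusted p = 0.0417), did not pass with normexp fitted on all spots, without the filter, with slide as a block or with the 2 groups fitted alone, and was -0.34 ± 0.06 on the other probe.

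Of the 4 V-ATPase genes, 3 were higher and none was lower. Atp6v0d1, a subunit of the stalk that joins the membrane part to the rotor, ran from -0.28 through -0.18 to 0.01 in HF-AL, from -0.35 through -0.12 to 0.11 in t0 and from -0.17 through 0.18 to 0.34 in HF-DR. The difference from HF-AL was 0.30 ± 0.05 (adjusted p = 9.82e-06), with some overlap. Atp6v1a, the subunit that hydrolyses ATP, ran from 0.29 through 0.47 to 0.64 in HF-AL, from 0.24 through 0.44 to 0.60 in t0 and from 0.05 through 0.78 to 0.99 in HF-DR. HF-DR 8 and 9 were again lowest, and the other HF-DR arrays read 0.57 or more. Its difference was 0.23 ± 0.08 (adjusted p = 0.00991), and 0.36 without the 7 arrays (adjusted p = 3.9e-06); it did not pass with scaling between arrays (0.06) or with median centring (0.20). The accessory protein Atp6ap1 differed by 0.16 ± 0.04 and Atp6v1b2 by -0.00 ± 0.06, which did not pass. Of the 6 genes with TCACGTGA in the promoter, Ctsd, Mcoln1, Atp6v0d1 and Atp6v1a were higher, Ctsa was lower and Gla did not pass; the other probe of Mcoln1 was lower. Over the 12 genes with CACGTG, which include these 6, 4 were higher, 5 were lower (Ctsa, Ctsf, Lgmn, Gaa and Lamp1) and 3 did not pass (Gla, Ctsl and Glb1), where 28.8% of all genes were higher and 35.9% lower.

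The ranges of HF-DR and HF-AL did not overlap for 5 genes (Ctsh, Ctsk, Ctsz, Lgmn and Ppt1), where 14.5% of all genes had such ranges, and for 9 without the 7 arrays (27% of all genes), with Ctsd, Ctsf, Gusb and Man2b1 added. Slides are a batch of the arrays, and 3 slides held both groups, with 1 array of each. The median difference of the 32 genes on them was -0.32, -0.22 and -0.13. On those slides Lgmn read -1.39 to -0.53, Ctsk -0.96 to -0.74, Gusb -0.90 to -0.82 and Ctsd 0.77 to 1.22. Scarb2 read -0.05 to 0.28 there, and Lamp2 0.30 to 0.62 on the 2 slides that measured it in both groups. HF-AL 1, 2 and 3 and HF-DR 7 to 12 were each alone on a slide, so a fit with slide as a block takes no group difference from them. Its calls cannot tell an effect of slide from the loss of these arrays. In that fit 15 genes were lower and 4 higher, where 28.6% of all genes were lower and 23.7% higher (52.3% in all). Lamp2 (0.22), Mcoln1 (0.17) and Atp6ap1 (0.01) no longer passed among the higher genes, nor Ctsb, Psap and Lamp1 among the lower, while Glb1 passed at -0.41. HF-DR 8 and 9, where Glb1 read 0.85 and 0.54, are among the arrays that do not count in that fit. With median centring in place of loess, Cd63, Psap, Ctsb, Lamp1, Atp6ap1 and Atp6v1a did not pass.

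Free feeding for 12 more weeks was compared with the start. None of the 32 genes passed between HF-AL and t0 with limma, where 0.697% of all genes did (0.467% higher and 0.23% lower), none changed at least 1.5-fold (0.0848% of all genes) and none had ranges apart (0.0424%, and 0.0667% without the 7 arrays); at an unadjusted p under 0.05 there were 5 (1 higher and 4 lower), against 13.5% of all genes. The median difference was -0.06, against 0.01 over all genes. Ctsa, at -0.18 ± 0.05 (adjusted p = 0.0742), was the closest to passing. It ran from -0.03 through 0.11 to 0.31 in t0 and from -0.24 through -0.10 to 0.19 in HF-AL, and without the 7 arrays it passed at -0.23 (adjusted p = 0.0244) as 1 gene of the 32 that was lower, with none higher, where 1.19% of all genes changed (0.521% lower and 0.673% higher). The other probes of Ctsa did not pass, at -0.10 and -0.08 on all arrays and -0.11 and -0.11 without the 7 arrays. Lgmn differed by -0.16 ± 0.10, Ctsd by -0.14 ± 0.09, Ctsk by -0.01 ± 0.08 and Gusb by -0.06 ± 0.14, none of which passed. Grn, with -0.51 ± 0.22, had the widest error. Of the probes not used, that of Ctsb passed at -0.29 ± 0.07 (adjusted p = 0.0332), against -0.19 ± 0.10 on the probe used.

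Restricted animals were also compared with the start. Between HF-DR and t0, 25 of the 32 genes changed, where 61.8% of all genes did, 20 of them lower (33% of all genes) and 5 higher (28.8%). The counts were also 20 and 5 without the 7 arrays, against a background of 66.4%. Of the 32, 8 changed at least 1.5-fold (17.2% of all genes) and 7 had ranges apart (16.6%); without the 7 arrays 7 changed at least 1.5-fold (18%) and 12 had ranges apart (26.7%). The median difference was -0.28, against -0.01 over all genes. This comparison shares the HF-DR arrays with the one against HF-AL, so its values are given side by side and not as further support. Lgmn differed by -1.04, Ctsk by -0.77, Laptm5 by -0.74, Gusb and Hexa by -0.68, Ppt1 by -0.48 and Psap by -0.45. Ctsa differed by -0.59, Ctsc by -0.29 and Glb1 by -0.34 (-0.54 without the 7 arrays), and the last 2 had not passed against HF-AL. The other probes of Glb1 read -0.09, which did not pass, and -0.14, which did. Without the 7 arrays they passed at -0.20 and -0.12. Ctsc did not pass without the 7 arrays (-0.12, adjusted p = 0.141). Neu1, at 0.07 ± 0.17, passed as lower without them, at -0.22, and its other probe did not, at -0.03. The genes that were higher were Ctsd (0.72), Scarb2 (0.36), Lamp2 (0.30), Atp6v1a (0.29) and Atp6v0d1 (0.25). Mcoln1 (0.11) and Atp6ap1 (0.03) did not pass against t0. With slide as a block 21 genes changed (56.1% of all genes), 17 lower (29.8%) and 4 higher (26.3%), and Lamp2 (0.21, adjusted p = 0.0921), Ctsc, Cd63 and Gla no longer passed. That fit again took no group difference from HF-DR 7 to 12.

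Other genes of the lysosome were read from lists fixed by name. Over all genes tested, 28.8% were higher and 35.9% lower in HF-DR than in HF-AL (30.7% and 36.1% without the 7 arrays). Of 34 other lysosomal hydrolases and activators, 18 were lower and 6 higher in HF-DR than in HF-AL (median -0.30). Without the 7 arrays 17 were lower and 9 higher, with a median of -0.13. Naaa, an amidase for lipid amides, fell by 1.09, the heparan sulfate sulfatases Sgsh and Ids fell by 0.87 and 0.69, and the phospholipase Pla2g15 rose by 0.74. Of 31 measured among 33 other membrane proteins, 12 were lower and 12 higher (median 0.08), and without the 7 arrays 9 and 14 (median 0.05). Tmem192 rose by 0.79, Mfsd8 by 0.65, and the transporter of histidine and peptides Slc15a4 fell by 0.41. Of 16 measured among 18 other V-ATPase subunits, 9 were higher and 4 lower (median 0.19), and without the 7 arrays 10 and 4 (median 0.26). Atp6v1d rose by 0.77 and Atp6v0b by 0.52, while Atp6v0e2 fell by 1.27.

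Genes for delivery to the lysosome, the nutrient switch and autophagy went both ways, as did all genes tested (28.8% higher and 35.9% lower). A difference of these lists from all genes was not tested. Of 20 genes of mannose 6-phosphate tagging and enzyme sorting, 8 were higher and 5 lower (median 0.05), and without the 7 arrays 9 and 4 (median 0.08). The receptor M6pr fell by 0.46, and the adaptors Ap1g1 and Gga2 rose by 0.43 and 0.48. Of 21 measured among 23 genes of the TFEB family and the nutrient switch on the lysosome, 7 were higher and 8 lower (median -0.08), and without the 7 arrays 6 and 6 (median 0.00). Mitf fell by 0.69, its relative Tfe3 rose by 0.29, the folliculin partners Fnip2 and Fnip1 fell by 0.59 and 0.41, and Tfeb, named although outside the rule for naming, did not pass at 0.07 ± 0.04. Of 31 measured autophagy genes, 9 were higher and 14 lower (median -0.10), and without the 7 arrays again 9 and 14 (median -0.02). The kinase Ulk2 fell by 0.81, Rb1cc1 and Atg14 fell by 0.59 and 0.51, and Atg5, which conjugates to Atg12, rose by 0.57. Of 4 measured among 8 cystatins, inhibitors of cysteine cathepsins, Cst3 fell by 0.71 and Cstb rose by 0.20. No gene of these 7 lists passed between HF-AL and t0.

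**Figure D5:**
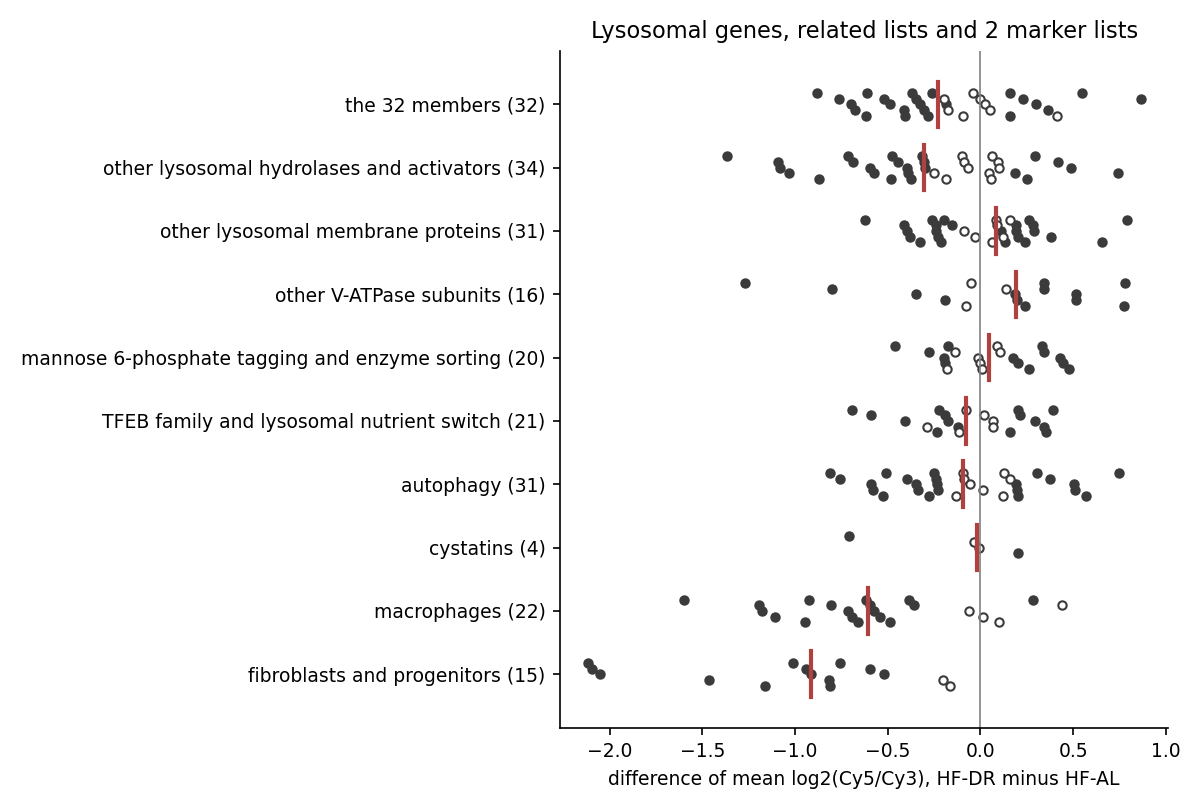
Difference in log2(Cy5/Cy3) between HF-DR and HF-AL for each gene of the 32, of 7 related lists and of macrophage and fibroblast markers, with the number measured in brackets, the median as a red line and open points for genes that did not pass. The medians are -0.23 for the 32 genes, -0.30 for other hydrolases, 0.19 for other V-ATPase subunits, -0.61 for macrophage markers and -0.91 for fibroblast markers.

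Markers of cell types that carry lysosomes moved with the same contrast, where 28.8% of all genes were higher and 35.9% lower. Of 22 macrophage markers, chosen without lysosomal proteins, 22 passed the filter, 17 were lower and 1 higher in HF-DR than in HF-AL (median -0.61), and Ccr2 and Csf1r fell by 1.11 and 0.95, while Msr1 rose by 0.28. Their mean ran from -1.23 to -0.22 in HF-DR, from -0.21 to 0.21 in HF-AL and from -0.23 to 0.47 in t0, with HF-DR 8 lowest. Of 15 fibroblast and progenitor markers, 13 were lower (median -0.91), among them Col1a1 (-2.05), Gsn (-2.12) and Col3a1 (-2.10), and their mean ran from -1.25 to -0.66 in HF-DR and from 0.08 to 0.28 in HF-AL. Of 15 adipocyte markers, 8 were lower and 1 higher (median -0.34; Plin4 fell by 2.11 and Slc2a4 rose by 1.25), and their mean ran from -1.15 to 0.05 in HF-DR and from -0.22 to 0.40 in HF-AL. The low end in HF-DR was HF-DR 8 and 9 (-1.15 and -1.08). Without the 7 arrays 7 were lower and 3 higher (median -0.20), and the HF-DR mean ran from -0.0956 to 0.0529. Macrophage markers then had 16 lower and 2 higher (median -0.48), and fibroblast markers 14 lower (median -0.89). The part of these cell types in the values of the lysosomal genes was not tested.

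Of the other markers, 6 of 12 for endothelium were lower and 2 higher (median -0.21, and -0.12 without the 7 arrays). Of 7 measured among 9 for mast cells, 4 were lower and 1 higher (median -0.34), and 6 of 10 for mesothelium were lower (median -0.38). Of 10 neutrophil markers listed, 9 were on the array and 4 passed the filter. Among these 2 were higher, S100a9 by 2.25 and S100a8 by 0.80. Of 6 measured among 12 seminal vesicle and epididymis genes 4 were higher, and without the 7 arrays none was. Among them, Cldn5 fell by 1.19, Esam fell by 0.41, Eng rose by 0.38, Kit rose by 0.49, Msln fell by 1.32, Muc16 fell by 0.86, Upk3b fell by 0.82, Pate4 rose by 2.98, Svs2 rose by 2.12 and Svs3a rose by 2.12. The mast cell proteases Mcpt4, Cpa3 and Cma1 were higher in HF-AL than in t0, by 0.53, 0.48 and 0.58, and they were the only markers of these 8 lists that passed in that comparison.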

How the data were processed

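Per the file headers and the submitters' processing notes, the authors quantified the 36 scans in Agilent's Feature Extraction, version 9.5.3.1. The deposited intensity values used were mean spot signals and median local backgrounds on a linear scale, not normalized, per the file headers. The authors' processed intensities and their deposited log2 values per probe were alternatives. The sources used here do not give how the authors made the log2 values.

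Background was corrected with normexp (limma 3.58.1 in R 4.3.3; offset 50), fitted without 84 specks with a net signal under -50. Ratios were normalized within arrays by loess (4 iterations, control spots at weight 0), and spots of a probe were averaged. Outlier spots were left out (0.307% of values were missing). A probe was kept if well above background on at least 9 of the 12 arrays of a group, which left 24706 of 41174 probes. Groups were compared in 1 limma fit over all 36 arrays, two-sided, with Benjamini-Hochberg adjustment over 16501 genes. The fit was tested on simulated data with independent noise and known shifts in HF-DR for a small part of the genes. The simulation held no slide effect and no arrays that stood apart, so it does not speak for those.

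The genes, lists and tests were chosen with earlier results of these data known. All 32 genes are named. Group values are given for the 2 leading genes of each role, for those that passed in the opposite direction and for a few others whose probes or arrays stood apart, and of each list up to 3 genes with the smallest adjusted p and 1 of the other direction; 1 such marker is not reported here. The 7 arrays left out as an alternative come from an earlier analysis of these arrays, and leaving out only HF-DR 8 and 9 was chosen after seeing the data. In all, 15 alternatives were tried: background, normalization, filter, probes, saturation, slide, replicate number, samples and these arrays. Probe positions are on mm8 per the file headers, and promoters on GRCm38.p6 are from RefSeq. Protein sequences were not analysed here.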

Additional observations from a re-analysis of the deposited data

How the results depend on the processing

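The direction of the median difference was kept under each of the 15 alternatives for the 3 comparisons. Between HF-DR and HF-AL it was -0.14 with median centring and -0.0907 with the deposited log2 values, against -0.23, and between HF-DR and t0 it was -0.20 with the deposited log2 values, against -0.28; the cause was not tested. With slide as a block 4 genes were higher in HF-DR than in HF-AL, in place of 7 (23.7% of all genes, in place of 28.8%). That fit takes no group difference from HF-AL 1, 2 and 3 and HF-DR 7 to 12, each alone on a slide. Between HF-AL and t0, 1 gene (Ctsa) changed, and was lower, with the processed signals, with scaling between arrays, with the deposited log2 values, without the 7 arrays and without HF-DR 8 and 9. With the mean of all probes of a gene none changed, and the other probes of Ctsa did not pass without the 7 arrays. Some single genes turned, besides Grn with slide as a block (-0.15). Against HF-AL, Lamp1 read 0.00885 with median centring and 0.00435 with the deposited log2 values, and with the latter Ctsb read 0.0159 and Ctsl 0.29, which passed (adjusted p = 0.000995). Mcoln1 read -0.0921 as the mean of its probes. Without HF-DR 8 and 9, Neu1 read -0.26 against HF-AL and -0.21 against t0 on the probe used, and Atp6v1b2 read 0.0902; without the 7 arrays Neu1 read -0.22 against t0. With the replicate number as a block 25 genes changed between HF-DR and HF-AL, in place of 24 (Gla passed, adjusted p = 0.0419), and the block changed no other call among the 32 genes. Deviations of same-numbered arrays correlated over 0.1 in 9 of 12 pairs of HF-AL with HF-DR (-0.14 to 0.40), in 2 of 12 of t0 with HF-AL and in 0 of 12 of t0 with HF-DR, and 3 of 36 arrays correlated best with their own number. The median was 0.21 for HF-AL with HF-DR, and these correlations do not settle whether animals of these groups were paired. The labels do not say that the numbers pair animals, and they were not taken to do so. Signal over background limits dim probes, and 1 dye orientation leaves a dye effect of a probe unmeasured.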
